A study of Mus musculus with 12 samples.

Results

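Cell cycle genes here are 40 named genes that drive a cell through DNA replication and division, and their transcripts were followed in liver and lung of selenium-deficient and selenium-adequate mice. A gene entered with the probe sets that the annotation of the Affymetrix mouse expression array assigns to it alone, and where several did, the probe set with the highest mean signal in the tissue stood for it. Of the 40 genes, 31 had such a probe set (53 probe sets in all), out of 13710 genes with a single-gene probe set on the array. The other 9, Ccnb1, Bub1b, Aurkb, Plk1, Ttk, Kif20a, Ndc80, Nuf2 and Tyms, were not analysed here, as no probe set was annotated to each of them alone.

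Male FVB/N mice went at weaning, at 3 weeks of age, onto a torula yeast diet low in selenium, to which 0 ppm (0 Se) or 0.1 ppm (0.1 Se) selenium was added as sodium selenite, and they stayed on it for 6 weeks. All mice were wild type, and the diets of a tissue's groups differed by the selenium added. The paper states that the mice were housed in groups, and the labels give no cage. An effect of the cage therefore cannot be told apart from that of the diet. RNA of whole liver and whole lung was hybridized to 12 arrays, 3 biological replicates in each of the 4 groups of tissue and diet. Values are log2 MAS5 signals, in which 1 unit is a 2-fold change, and a probe set without a value on an array is called not listed, because the authors left out absent calls and no listed signal lies under 100. The tissue labels held against defining transcripts. The hepatocyte gene Alb lay between 15.51 and 15.93 on the 6 liver arrays, the surfactant gene Sftpc lay between 14.80 and 15.83 on the 6 lung arrays, Apoa1 and Ttr were not listed in lung, and Scgb1a1 was not listed in liver.

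A resting cell enters the cycle when D-type cyclins such as Ccnd1 and then E-type cyclins activate cyclin-dependent kinases (CDKs), which release E2F factors from the retinoblastoma proteins. Genes of DNA replication are then transcribed, and later the mitotic genes, many of which are held off in resting cells by the DREAM complex at CHR elements next to the CCAAT boxes that NF-Y binds. Adult liver is largely quiescent and re-enters the cycle on injury, and adult lung renews its cells slowly. In whole tissue, fewer cycling cells and less RNA per cell cannot be told apart.

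The genes were classed by their role, and their promoters were searched for the letters tied to these classes. Printed are 5 stretches, of genes whose values are taken up below. They come from the RefSeq promoter table of GRCm38.p6, which holds 250 bases before to 50 bases after each start and had an entry for 32 of the 40 genes. All 5 lie on the minus strand and are written 5′ to 3′ along the gene, from 9 bases before the first match to at most 9 after the last. Capitals mark matches on either strand. The CCAAT box was searched as CCAAT and appears as ATTGG where it lies on the other strand. The CHR element was searched as TTTGAA and, in its other spelling, as TTCGAA. For E2F the letters searched were TTTGGCG, then the variant TTTCGCG, and as the last variant TTCCCGC. Cdk1, the mitotic kinase, is at chr10:69352913-69353129. Its partner cyclin Ccnb2 is at chr9:70421536-70421730, the proliferation antigen Mki67 at chr7:135716463-135716576, the topoisomerase Top2a at chr11:99024198-99024425, and the helicase subunit Mcm6 at chr1:128359706-128359824.
Cdk1: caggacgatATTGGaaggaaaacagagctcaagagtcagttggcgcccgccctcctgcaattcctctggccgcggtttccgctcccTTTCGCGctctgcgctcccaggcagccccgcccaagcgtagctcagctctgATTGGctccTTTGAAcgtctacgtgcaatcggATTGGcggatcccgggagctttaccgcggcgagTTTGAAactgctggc
Ccnb2: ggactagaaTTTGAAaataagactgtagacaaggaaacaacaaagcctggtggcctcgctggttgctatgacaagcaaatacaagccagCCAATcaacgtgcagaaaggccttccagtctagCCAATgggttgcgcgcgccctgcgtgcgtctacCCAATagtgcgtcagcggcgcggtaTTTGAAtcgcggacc
Mki67: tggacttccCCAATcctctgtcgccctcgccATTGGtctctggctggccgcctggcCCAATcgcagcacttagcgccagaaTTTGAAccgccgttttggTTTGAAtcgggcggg
Top2a: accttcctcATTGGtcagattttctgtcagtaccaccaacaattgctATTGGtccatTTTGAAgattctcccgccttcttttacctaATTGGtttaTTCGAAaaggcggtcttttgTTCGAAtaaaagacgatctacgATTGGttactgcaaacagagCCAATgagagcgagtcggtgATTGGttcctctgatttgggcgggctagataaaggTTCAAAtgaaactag
Mcm6: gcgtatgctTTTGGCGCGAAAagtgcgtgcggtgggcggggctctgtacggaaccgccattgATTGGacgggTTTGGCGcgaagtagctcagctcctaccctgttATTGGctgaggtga

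Cdk1, Ccnb2, Mki67 and Top2a each carried CCAAT together with the CHR letters, and Cdk1 an E2F match as well. Mcm6 carried CCAAT and the E2F letters, with TTTGGCG and CGCGAAA overlapping in its first run of capitals. Of the 21 mitotic genes with an entry, 14 (66.7%) held both CCAAT and a CHR match, against 8.61% of the 27025 genes in the table. Of the 9 replication genes, 5 (55.6%) held an E2F match, against 7.64% of all genes, and 2, Mcm2 and Mcm7, held CCAAT with a CHR match. Ccne1 and Cdkn1a held none of these letters in the window. A match describes the letters and is neither a binding site nor a cause of the values that follow.

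Fewer of these genes were listed in liver than in lung, as over all genes. By the probe set that stands for the gene, 22 of the 31 genes (71%) were listed on all 6 lung arrays, against 75.6% of all 13710 genes, and 24 on at least 4. In liver 10 (32.3%) were listed on all 6 arrays, against 60.7% of all genes, and 14 on at least 4. On no liver array were 8 of the 31 (25.8%), near the 22.4% of all genes. Tpx2, a spindle assembly factor, was not listed in either tissue, and 7 further genes were listed on 1 to 6 lung arrays but on no liver array. These were Cdkn1a, which encodes the CDK inhibitor p21, the checkpoint kinase Bub1, the survivin gene Birc5, the spindle motors Kif11 and Kif23, the spindle protein Nusap1 and the kinetochore motor Cenpe, of which Cenpe was on 1, Kif11 on 2 and Birc5 on 3 lung arrays. Gins1, a subunit of the replicative helicase, ran the other way, with values of 7.76 to 8.54 on the 6 liver arrays and 6.66 on 1 lung array. Over the whole array, 17235 to 17923 probe sets were listed on the liver arrays and 22197 to 22718 on the lung arrays.

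**Figure D1:**
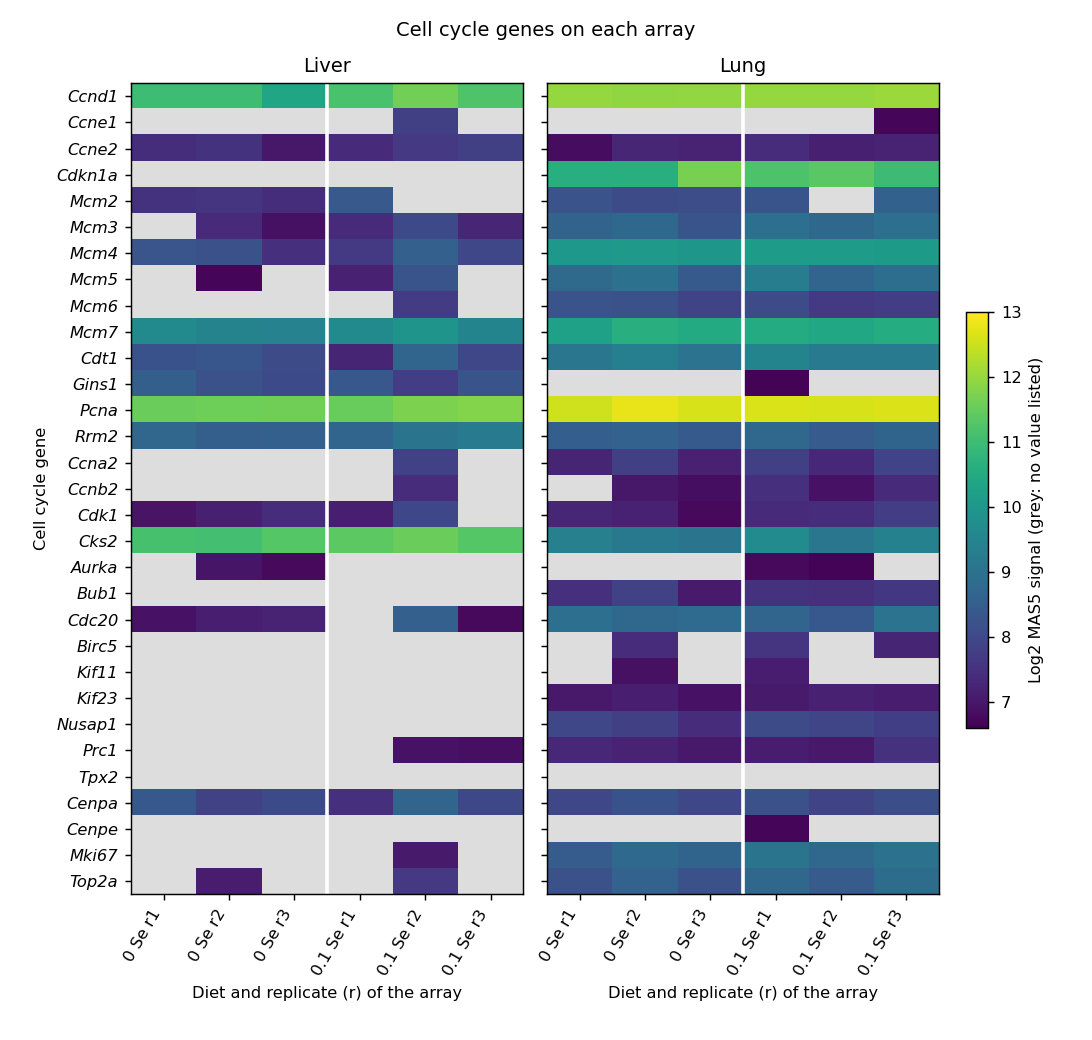
Log2 MAS5 signal (colour) of the 31 cell cycle genes (rows) on the 6 liver and 6 lung arrays (columns), grey where no value is listed. Colours are to be read along a row within a tissue, since probe sets differ in brightness and Ccna2, Ccne1, Cks2 and Cdkn1a use another probe set in each tissue. Most mitotic genes are grey in liver, and fewer of them are grey on 0.1 Se replicate 2. The kinase, checkpoint and spindle genes are mostly grey there too.

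The 12 genes tested could be compared between the tissues, each by the same probe set on the arrays of both, and 8 differed past adjusted p 0.05. Higher in lung were 7 of 12 (all probe sets, 47.7%), and 1 of 12 was higher in liver (33.9%). Of the 6 replication genes tested, 5 were among the former, and of the 4 mitotic genes tested 1 was. Most of the 17 mitotic genes could not be tested, as they had fewer than 2 values in some group. When values not listed were set to the lowest value, 17 members were higher in lung, Mki67, Top2a and Bub1 among them. Mcm4, a subunit of the ring that unwinds DNA at origins, was 4.09-fold higher in lung (log2 difference 2.03 ± 0.16 SE, limma adjusted p = 6.72e-09). Its lung values lay between 9.99 and 10.13 and its liver values between 7.47 and 8.57. Mcm3 was 2.6-fold, the helicase loader Cdt1 2.24-fold, the sliding clamp Pcna 2.01-fold and Mcm7 1.84-fold higher in lung, and of the other probe sets of Mcm7 one gave 0.65 ± 0.13 and one 0.14 ± 0.12 (adjusted p = 0.283). Outside replication, Cdc20, the activator of the anaphase-promoting complex, was 2.64-fold higher in lung (adjusted p = 0.000118) and Ccnd1 1.89-fold (adjusted p = 1.11e-06).

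Cks2, a small subunit bound by Cdk1, was the member higher in liver, by 3.94-fold (log2 difference -1.98 ± 0.11 SE, adjusted p = 1.01e-10). Cdk1 itself differed by -0.06 ± 0.17 between lung and liver (adjusted p = 0.74), and the centromeric histone Cenpa by 0.00 ± 0.17 (adjusted p = 0.985). The cyclin Ccne2 (-0.28 ± 0.14, adjusted p = 0.0716) did not pass. Rrm2, the small subunit of ribonucleotide reductase, did not pass by the probe set that stood for it (-0.23 ± 0.11, adjusted p = 0.0722). Another probe set of Rrm2 did pass as higher in liver (-0.58 ± 0.16, adjusted p = 0.00347). Each array had been scaled by itself, and the median over all probe sets was 0.18 higher in lung. That shift was 0.45 after quantile normalization and -0.02 after median centring, and the share of calls that were higher in lung went from 58.4% to 68.7% and 49.2%. The 8 members called kept their direction and call under both scalings, and under median centring Ccne2 and Rrm2 passed as higher in liver too.

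**Figure D2:**
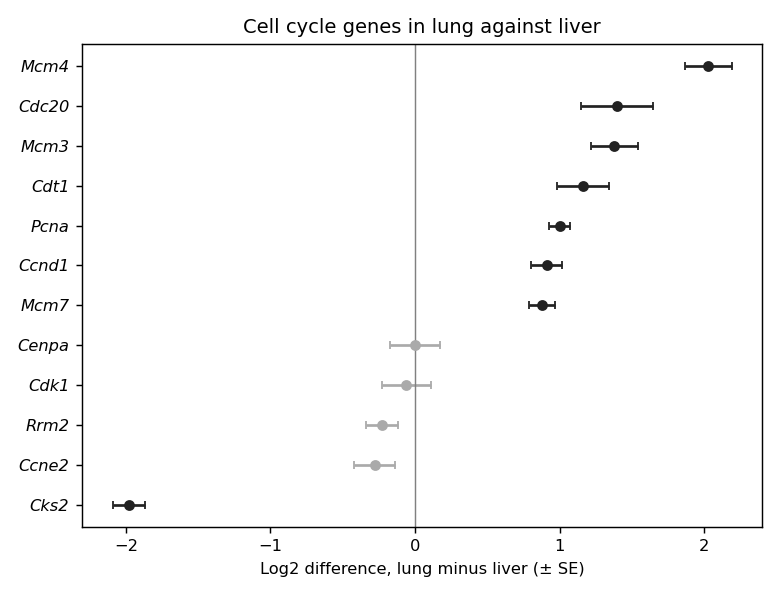
Log2 difference of lung minus liver (x axis) with its SE for the 12 cell cycle genes tested (rows), black where limma's adjusted p was under 0.05 and grey otherwise. Mcm4 lies furthest to the right at 2.03 and Cks2 furthest to the left at -1.98.

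No cell cycle gene passed the test for diet in liver. Of 13 members tested by limma, 0 passed adjusted p 0.05 (0.0121% of all probe sets did) and 1, Ccnd1, had an unadjusted p under 0.05 (6.65% of all probe sets). The methods' t-test gave an unadjusted p under 0.05 for 0 of the 13. The difference was above 0, higher in 0.1 Se, for 10 of the 13 members (49% of all probe sets), with a median of 0.23 against 0.00 over all genes. Standard errors ran from 0.10 to 0.44. With values on all 6 arrays required, the median of 10 members was 0.13. With values not listed set to the lowest value, that of 31 members was 0.11. Among the 10 members listed on the 6 arrays, the diets did not overlap for 2, Ccnd1 and Cks2, both higher in 0.1 Se (4.99% of all probe sets), and for 0 with 0 Se higher (7.22%). By another probe set of Ccnd1 and the other of Cks2 the diets overlapped, and by the remaining probe set of Ccnd1 they did not.

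Ccnd1, at chr7:144929931-144939831, is the D-type cyclin that growth factors induce at the start of the cycle. Its log2 signals were 11.01, 11.00 and 10.38 in 0 Se liver and 11.15, 11.63 and 11.23 in 0.1 Se liver. The lowest 0.1 Se array lay 0.14 above the highest 0 Se array, and 0 Se replicate 3 stood below the rest. The difference was 0.54 ± 0.18 SE (adjusted p = 0.64), and its other probe sets gave 0.41 ± 0.17 and 0.31 ± 0.14. Cdk4, a kinase that cyclin D1 activates, differed by 0.34 ± 0.14 in the same direction (adjusted p = 0.735). Among the other G1 kinases, Cdk6 (-0.25 ± 0.15, adjusted p = 0.826) and Cdk2 (-0.24 ± 0.18, adjusted p = 0.855) went the other way.

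Cks2 read 11.14, 11.08 and 11.30 in 0 Se liver and 11.38, 11.53 and 11.32 in 0.1 Se liver. Its diets were apart by 0.02 at their nearest arrays, with a difference of 0.23 ± 0.11 (adjusted p = 0.754). The other probe set of Cks2, by which the diets overlapped, gave 0.19 ± 0.13 (adjusted p = 0.846). Rrm2 supplies deoxynucleotides in S phase and read 8.72, 8.53 and 8.55 against 8.68, 9.07 and 9.22. Its diets overlapped and the difference was 0.39 ± 0.18 (adjusted p = 0.757). Ccne2, a partner of Cdk2, read 7.43, 7.54 and 7.0 against 7.37, 7.66 and 7.81, a difference of 0.29 ± 0.21 (adjusted p = 0.855).

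Pcna had the smallest standard error of the 13 members in liver. Its values were 11.53, 11.59 and 11.61 in 0 Se and 11.51, 11.74 and 11.82 in 0.1 Se, a difference of 0.11 ± 0.10 (adjusted p = 0.876). Mcm7 read 9.67, 9.47 and 9.43 against 9.63, 9.92 and 9.48, a difference of 0.15 ± 0.15 (adjusted p = 0.887), and another of its probe sets gave -0.15 ± 0.20. For Mcm3, Cdk1 and Cdc20, listed on 5 arrays each, the differences were 0.42 ± 0.28, 0.37 ± 0.28 and 0.57 ± 0.44. The array without a value was in 0 Se for Mcm3 and in 0.1 Se for Cdk1 and Cdc20. Cdc20 read 6.90, 7.13 and 7.24 in 0 Se and 8.56 and 6.75 in 0.1 Se. Cdt1 (-0.23 ± 0.31), Gins1 (-0.13 ± 0.21) and Cenpa (-0.04 ± 0.29) were the 3 below 0, and Mcm4 was at 0.09 ± 0.28, with -0.23 ± 0.23 by its other probe set.

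**Figure D3:**
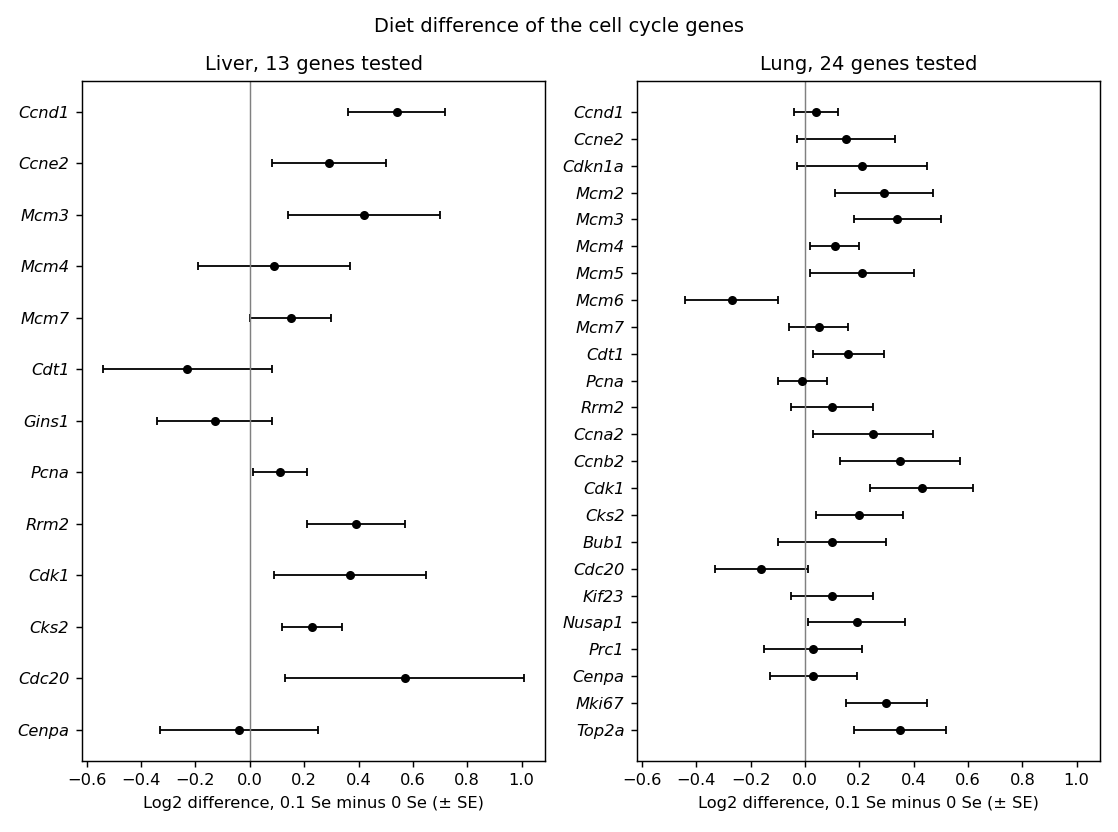
Log2 difference of 0.1 Se minus 0 Se (x axis) with its SE for the cell cycle genes tested in liver (13 rows) and lung (24 rows). Most points lie right of 0, and 0 genes passed limma's adjusted p of 0.05 in either tissue.

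A single liver array stood apart for these genes. On 0.1 Se replicate 2, 21 of the 31 genes were listed, against 14 to 17 on the other 5 liver arrays. There were 5 genes listed there and on no other liver array. They were the S-phase and mitotic cyclins Ccna2 (7.85) and Ccnb2 (7.41), the cyclin Ccne1 (7.82), Mcm6 (7.72) and Mki67 (7.07), the antigen used to stain dividing cells. On each other liver array 0 member genes were listed alone. Over all genes the array did not stand out in this way, since 149 genes (1.56% of those listed on it) were listed there alone, against 78 to 218 (0.837% to 2.33%) on the others.

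Of the genes listed more widely, some were high on it and others were not listed there. Top2a, which untangles replicated DNA, read 7.66 there by its brighter probe set and 7.10 on 0 Se replicate 2. Its other probe set read 6.64 on 0 Se replicate 1 and 6.85 and 7.16 on 0.1 Se replicates 1 and 3. That probe set was not listed on 0.1 Se replicate 2. Cdc20 read 8.56 there against 6.75 to 7.24 on its 4 other listed arrays, and Mcm5 read 8.25 against 6.69 and 7.18. Mcm2, which read 7.43 to 8.38 on 4 other liver arrays, and the mitotic kinase Aurka, which read 6.96 and 6.75 in 0 Se, were not listed on it. Replicate 2 of 0.1 Se was the highest liver array for 6 of the 10 members listed on all 6 and the lowest for 1, Gins1. Outside the 40 genes, the cohesin regulator Cdca5, the cytokinesis protein Anln, the kinase Pbk, the spindle protein Aspm and Shcbp1 were also listed there alone, 5 of 38 other mitotic genes, against 0 or 1 on each other liver array. Without that array, 18 of the 31 genes rather than 23 were listed on at least 1 liver array, and the 14 listed on at least 4 arrays did not change in number. The median difference of the members was then 0.09, with 8 of 11 above 0, and Ccnd1 was at 0.39 (adjusted p = 0.679). Without 0 Se replicate 3, the lowest array for Ccnd1, the median was 0.13, with 8 of 12 above 0, and Ccnd1 was at 0.33 (adjusted p = 0.774).

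Acute phase and macrophage transcripts were high on the same array. Lcn2, an iron-binding protein of the acute phase and of neutrophil granules, read 10.35 on it and at most 8.54 on the other liver arrays. Saa1 and Saa2, acute phase proteins of hepatocytes, read 14.19 and 12.77 there, against 11.96 to 13.30 and 9.74 to 10.81. Of 11 macrophage markers listed on the 6 arrays, 9 were highest on this array, where the summed signal of the list was 30500 against 18900 to 27100 elsewhere. Over the 3 arrays of each diet, 11 of 11 macrophage markers were above 0 (49% of all probe sets; median 0.35). By limma 5 had an unadjusted p under 0.05 (6.65% of all probe sets), each higher in 0.1 Se. The diets did not overlap for 6, each higher in 0.1 Se (4.99%). The list was not tested as a group. The neutrophil list had 2 of 8 markers listed there with a summed signal of 639, against at most 218 on the others, while Csf3r, Cxcr2, Mmp8, Mmp9, Il1r2 and Trem1 were not listed in liver. The part of these cells in the cell cycle values was not tested.

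**Figure D4:**
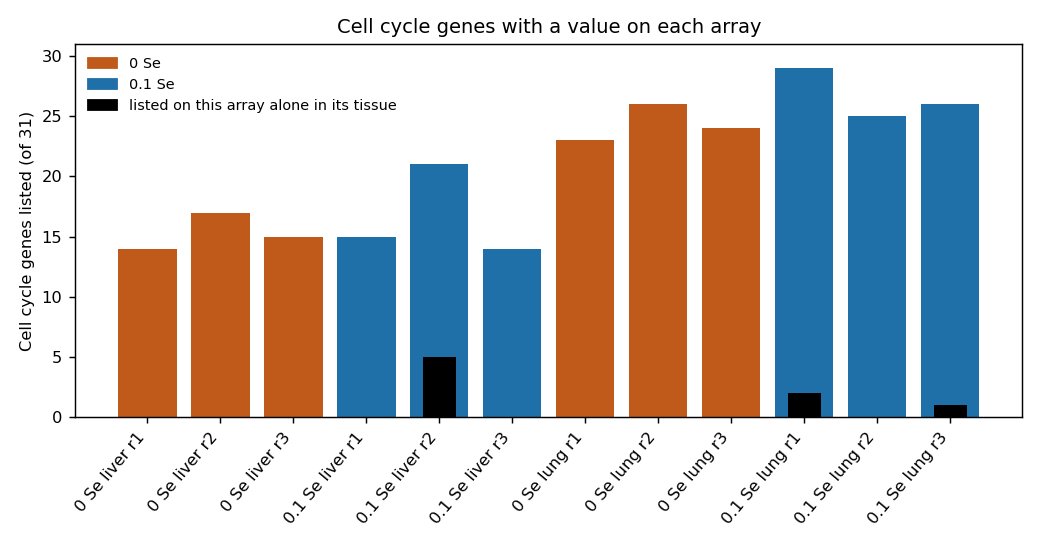
Number of the 31 cell cycle genes with a value on each array (bars, coloured by diet), with the number listed on that array alone within its tissue in black. In liver, 0.1 Se replicate 2 stands at 21 with 5 genes of its own, and in lung 0.1 Se replicate 1 stands at 29 with 2 of its own.

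In lung, again, no member passed the test for diet. Of 24 tested by limma, 0 passed adjusted p 0.05 (0.0924% of all probe sets) and 1, Cdk1, had an unadjusted p under 0.05 (7.67%). The methods' t-test gave an unadjusted p under 0.05 for 1 of the 24, Mcm4, which lay under its 1.5-fold limit, and for 0 after adjustment. The difference was above 0 for 21 of the 24 (47.9% of all probe sets), with a median of 0.15 against -0.02 over all genes. Of the 22 members listed on the 6 lung arrays, the diets did not overlap for 3, Cdk1, Mcm3 and Mcm4, each higher in 0.1 Se (6.07%), and for 0 with 0 Se higher (6.86%). By the other probe sets of Mcm3 the diets overlapped, and by the other of Mcm4 they did not. Standard errors were 0.08 to 0.24.

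Cdk1, at chr10:69335146-69352912, read 7.29, 7.19 and 6.76 in 0 Se lung and 7.36, 7.42 and 7.75 in 0.1 Se lung. Its diets were 0.07 apart at their nearest arrays, and the difference was 0.43 ± 0.19 SE (adjusted p = 0.642). Mcm3 read 8.63, 8.74 and 8.26 against 8.94, 8.77 and 8.95, a difference of 0.34 ± 0.16 (adjusted p = 0.657). For Mcm4 the values hardly moved within a diet, at 10.00, 10.03 and 9.99 against 10.11, 10.13 and 10.09, and the difference was 0.11 ± 0.09 (adjusted p = 0.845).

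Mki67, at chr7:135689784-135716450, read 8.47, 8.79 and 8.65 in 0 Se lung and 9.07, 8.76 and 8.99 in 0.1 Se lung. The diets overlapped by 0.1 Se replicate 2, and the difference was 0.30 ± 0.15 (adjusted p = 0.69). Top2a read 8.20, 8.61 and 8.19 in 0 Se and 8.76, 8.44 and 8.85 in 0.1 Se, where replicate 2 was again the lowest and overlapped with 0 Se. Its difference was 0.35 ± 0.17 (adjusted p = 0.696). The cyclins Ccna2 and Ccnb2 gave 0.25 ± 0.22 and 0.35 ± 0.22, and the second probe set of Ccna2 gave 0.40 ± 0.16 (adjusted p = 0.583).

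Not every member leaned that way. Mcm6 read 8.24, 8.18 and 7.90 against 8.07, 7.68 and 7.77, a difference of -0.27 ± 0.17 (adjusted p = 0.785), while its second probe set gave 0.18 ± 0.18. Cdc20 was at -0.16 ± 0.17 and Pcna at -0.01 ± 0.09. Cks2 read 9.38, 9.19 and 9.05 against 9.70, 9.12 and 9.41, a difference of 0.20 ± 0.16 (adjusted p = 0.831). Ccnd1, the member with the smallest liver p, kept within 0.10 over the 6 lung arrays, at 11.99, 11.94 and 11.96 against 11.99, 11.98 and 12.04, a difference of 0.04 ± 0.08 (adjusted p = 0.941).

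Cdkn1a, at chr17:29090979-29100722, encodes p21, which p53 and other stress signals induce to hold CDKs inactive, and it was listed on the 6 lung arrays. It read 10.62, 10.64 and 11.70 in 0 Se lung and 11.22, 11.36 and 10.99 in 0.1 Se lung. These values are of its brighter probe set, by which 0 Se replicate 3 was the highest array and stood apart from its group. The SD was thus 0.62 in 0 Se and 0.19 in 0.1 Se. The diet difference was 0.21 ± 0.24 (adjusted p = 0.897), and without 0 Se replicate 3 it was 0.57 (adjusted p = 0.242). Without 0 Se replicate 1 or 2 it was 0.02 or 0.03. The other probe set of Cdkn1a read 9.01, 9.38 and 10.03 against 10.07, 10.1 and 9.5, a difference of 0.42 ± 0.24 (adjusted p = 0.761). By it, 0 Se replicate 3 lay below 0.1 Se replicates 1 and 2. On 0 Se replicate 3, Klf9, a glucocorticoid-induced factor, read 14.42 against 13.69 and 14.01 on the others of its group, and Fkbp5 9.66 against 8.86 and 8.78. In 0.1 Se lung, Klf9 read 14.46, 14.51 and 14.23 and Fkbp5 9.95, 9.74 and 10.26. A link of these genes to the Cdkn1a values was not tested.

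**Figure D5:**
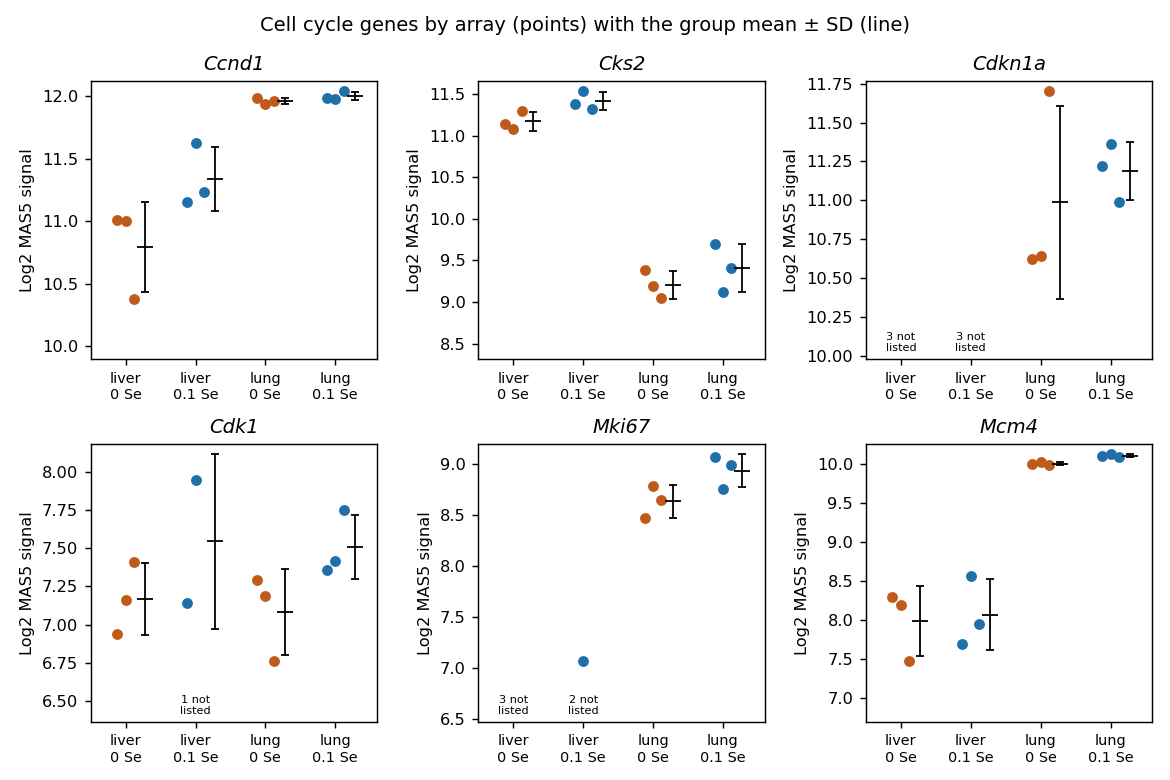
Log2 MAS5 signal (y axis, a separate range in each panel) of Ccnd1, Cks2, Cdkn1a, Cdk1, Mki67 and Mcm4 on each array (points) by tissue and diet, with the group mean ± SD of the listed values beside them. In lung, Mcm4 and Ccnd1 are nearly flat, Cdkn1a by the probe set shown has 1 high array in 0 Se, and Mki67 has a single liver value of 7.07.

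The array with the highest Cdkn1a by the brighter probe set of that gene was the lowest for many other members, though not for all. Of the 22 members listed on the 6 lung arrays, 12 had their lowest value on 0 Se replicate 3, among them Mcm3, Mcm5, Cdk1, Ccna2 and Cks2, and 1, Cdkn1a, its highest. The highest values fell on 0.1 Se replicates 1 and 3 for 7 members each. Without 0 Se replicate 3, the median difference was 0.08, with 17 of 23 members above 0, and without 0.1 Se replicate 1 it was 0.08, with 19 of 23 above 0. Marker lists of other cells also varied over these arrays. The summed signal of 10 NK and cytotoxic markers was 4410 on 0 Se replicate 3 and 5540 and 6450 on the other 0 Se arrays. On the 0.1 Se arrays it was 7050 to 12600. Of the 9 tested, 9 had a difference above 0 (median 0.81), against 47.9% of all probe sets. For the neutrophil list the sums were 1380, 3520 and 3570 in 0 Se and 4500 to 17800 in 0.1 Se, the highest on 0.1 Se replicate 1, where the most cell cycle genes were listed (29 of 31). B and plasma cell markers were below 0 for 7 of 8 (median -0.12), against 5954 of all 10899 genes tested. Lung epithelium markers were below 0 for 8 of 10 (median -0.19), with 7 of 10 highest on 0 Se replicate 3 and 8 of 10 lowest on 0.1 Se replicate 1. Cardiac muscle transcripts varied from 4410 to 37000 over the lung arrays. Their part in the member values was not tested.

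Whether diet acted differently in the tissues was tested for the 12 members measured in all 4 groups. Limma called 0 of them and 0 of all 15112 probe sets (0%), and 1 member had an unadjusted p under 0.05 (6.16% of all probe sets). This was Ccnd1, whose diet difference was lower in lung than in liver by a log2 difference of -0.50 ± 0.22 (unadjusted p = 0.0349, adjusted p = 0.76), and its other probe sets gave -0.28 ± 0.20 and -0.20 ± 0.17. The other 11 had unadjusted p values of 0.169 or more, from Cdc20 at -0.72 ± 0.50 to Cdt1 at 0.39 ± 0.36.

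The genes around the members were read from lists, and in each of these 0 genes passed adjusted p 0.05 in either tissue. Among E2F, RB and DREAM regulators, which switch the members on and off, liver had 7 of 13 above 0 (49% of all probe sets). Lung had 12 of 16 above 0 (47.9%), and the medians were 0.01 in liver and 0.07 in lung. Lin54, the DREAM subunit that binds CHR elements, was 9.18, 9.17 and 9.05 in 0 Se liver and 8.32, 8.83 and 8.17 in 0.1 Se liver, a difference of -0.70 ± 0.19 (adjusted p = 0.587). All 3 of its 0.1 Se arrays lay below the 0 Se arrays. Of the 11 genes of this list on the 6 liver arrays, this held for 1 (7.22% of all probe sets). For 0 of them the 0.1 Se arrays all lay above (4.99%). Rbl1, the pocket protein p107, gave 0.57 ± 0.25 in liver and 0.26 ± 0.14 in lung, with its highest liver value, 8.57, on 0.1 Se replicate 2.

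Other G1 regulators lay close to 0, with medians of 0.05 over 13 genes in liver and 0.06 over 17 in lung. Cdkn1b, the CDK inhibitor p27, differed by 0.20 ± 0.08 in lung (adjusted p = 0.605), and Ccnh, a subunit of the CDK-activating kinase, by -0.26 ± 0.09 in liver (adjusted p = 0.664). Over the replication origin and fork genes the medians were 0.01 (26 genes) in liver and 0.06 (30 genes) in lung. In lung, Rfc3 (0.43 ± 0.18), Fen1 (0.37 ± 0.15) and Prim1 (0.32 ± 0.16) were above 0 and Rfc2 (-0.32 ± 0.13) was below. The single-strand binding protein gene Rpa1 differed by 0.28 ± 0.10 in liver (adjusted p = 0.664).

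Among other mitotic genes in lung, 13 of 18 were above 0 (47.9% of all probe sets; median 0.13) and 5 had an unadjusted p under 0.05 (7.67% of all probe sets), each higher in 0.1 Se. Fbxo5, which holds back the anaphase-promoting complex, read 7.76, 7.25 and 7.58 in 0 Se and 8.08, 8.06 and 8.27 in 0.1 Se, a difference of 0.61 ± 0.17 (adjusted p = 0.38). Ube2c, an enzyme that works with that complex, read 7.50, 7.74 and 7.73 against 8.47, 7.96 and 8.26, a difference of 0.57 ± 0.18 (adjusted p = 0.429). In both genes the diets did not overlap. Of the 15 such genes listed on the 6 lung arrays, this held for 5 with 0.1 Se higher (6.07% of all probe sets). It held for 1 with 0 Se higher (6.86%). In liver, 0 of 13 such genes had an unadjusted p under 0.05 by limma (6.65% of all probe sets) and the median was 0.06. For the difference of the diet effect between tissues, limma called 0 of 8 such genes. Of these, 1 had an unadjusted p under 0.05 (6.16% of all probe sets). The anaphase-promoting complex itself had medians of 0.11 in liver and -0.01 in lung over 13 genes.

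The p53 targets beside Cdkn1a had medians of -0.06 in liver (12 genes) and 0.01 in lung (17 genes). Mdm2, the ligase that degrades p53, differed by 0.45 ± 0.14 in liver (adjusted p = 0.613), and the antiproliferative gene Btg2 by -0.66 ± 0.22 in lung (adjusted p = 0.466) and 0.60 ± 0.28 in liver. Among growth signals upstream of Ccnd1, 7 of 18 lung genes had an unadjusted p under 0.05 (7.67% of all probe sets), 6 of them lower and 1 higher in 0.1 Se. The immediate early gene Egr1 differed by -1.11 ± 0.29 in lung (adjusted p = 0.308) and by 1.16 ± 0.45 in liver (adjusted p = 0.694), and Fos by -1.21 ± 0.37 in lung. Myc differed by 0.32 ± 0.24 in liver. The fasting and glucocorticoid list, to which Klf9 and Fkbp5 belong, had a median of 0.18 in liver (14 genes) and 0.18 in lung (11 genes), and the clock genes 0.00 (13 genes) and 0.12 (14 genes).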

How the data were processed

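Cell cycle transcripts were measured in 12 liver and lung RNA samples, 4 groups of 3 arrays. The authors computed MAS5 signals with a scaling of every array on its own, dropped absent calls, and deposited log2 values for 29467 probe sets (lowest 6.64). Tools in the notes of the submitters were affy 1.36.0 under R 2.15.2. Control probe sets (58) were left out, 24504 single-gene probe sets were named from the platform annotation, and 0 columns lacked a sample.

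Diets were compared within a tissue by limma 3.58.1 (R 4.3.3; lmFit, eBayes with a trend) on probe sets with at least 2 values per diet, blanks missing, with Benjamini-Hochberg adjustment over all of them. Tissue and interaction tests used the 12 arrays. Replicates are 3 per group, so their number limits the precision. The code was tested on simulated data. The members, lists and tests were chosen with earlier results of these data known. Values are given for members with the smallest unadjusted p per tissue (up to 6), for Cdkn1a, Ccnd1, Mki67 and Top2a, for up to 8 members by tissue difference, and for up to 4 genes per list. Genes listed on a single liver array, the members not overlapping and the acute phase genes were chosen after their values were seen. Promoters are from RefSeq (32 of 40 members). Alternatives covered the filter, scaling, eBayes settings, array weights, the replicate block, other probe sets, the methods' t-test (1.5-fold) and leaving out arrays.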

Additional observations from a re-analysis of the deposited data

How the results depend on the processing

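The count of members past adjusted p stayed at 0 in liver and in lung under 20 alternatives each, and for the difference between tissues under 19. The median difference of the members kept its sign, between 0.09 and 0.27 in liver and 0.08 and 0.20 in lung. Another probe set turned the sign for Mcm7 (-0.15) and Mcm4 (-0.23) in liver and for Mcm6 (0.18) and Mcm7 (-0.04) in lung. Members higher in lung numbered 17 instead of 7 when blanks took the lowest value, which adds genes listed on few or no liver arrays, 6 to 7 with an array left out, and 5 of the 9 that had values on the 12 arrays. Members higher in liver numbered 3 under median centring, 2 with blanks at the lowest value, 2 without a trend, and 1 to 3 with an array left out (3 when 0.1 Se liver replicate 1 was dropped, 2 when it was 0 Se liver replicate 3), against 1. Counting a gene listed on any array gave 23 in liver instead of 14, and by any of its probe sets 23 rather than 22 genes were on all 6 lung arrays. The cause of these changes was otherwise not tested.

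Over all probe sets, limma's calls for diet numbered 2 in liver (0 to 14 over the alternatives, 14 with the 12 arrays in one fit, 9 when 0.1 Se replicate 1 was dropped and 0 when 0 Se replicate 1 or 3 was) and 20 in lung (0 to 75, the highest without 0.1 Se lung replicate 1 and 0 without 0 Se replicate 2 or 0.1 Se replicate 2). For the difference between tissues the number was 0, and 58 with blanks at the lowest value. With the replicate number as a block, 0 members were called in liver, 0 in lung and 0 between tissues, and all probe sets called numbered 0, 56 and 3. Arrays of the same number did not deviate together across diets (correlations -0.188 to -0.0074 in liver and -0.166 to 0.147 in lung over 13376 probe sets), so they share a number and are not taken as pairs. Between liver and lung of 0 Se, each array correlated best with its own number (0.0638 to 0.11), a hint from the data, not the design, while in 0.1 Se the correlations were -0.0391 to 0.0226.

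Absent calls and signals under 100 cannot be told apart among values not listed, so no fold is given against them.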
